A study of Mus musculus with 8 samples.

Results

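Protein tyrosine phosphatase genes were examined in pancreatic islets of mice with and without a β-cell deletion of Tead1. Members were the protein-coding genes whose symbols begin with Ptpn or Ptp4a followed by a number, or with Ptpr followed by a letter. Of 40 such genes among 48709 in the tables, 36 had at least 10 exon reads in 2 or more of the 4 libraries and were kept: 18 of 20 receptor types, 15 of 17 non-receptor types and 3 of 3 Ptp4a genes. Ptpn7 lay just inside this limit, with 15 and 2 exon reads in the pair of Flox libraries against 10 and 4 in the pair labelled β-Tead1-KO. Ptprh lay just outside it, with 1, 15, 1 and 4 exon reads in the same order, and Ptprq, Ptpn5 and Ptpn20 were the other genes not kept.

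Protein tyrosine phosphatases remove phosphate from tyrosine residues and so oppose tyrosine kinases. Receptor types cross the membrane and carry adhesion-like or other outer domains, non-receptor types are held in place by domains such as SH2, FERM or PDZ, and the small Ptp4a enzymes are anchored by a lipid. Islets are known for abundant Ptprn and Ptprn2, the granule membrane proteins also called IA-2 and phogrin. These lack normal phosphatase activity and are targets of autoantibodies in human autoimmune diabetes. Ptpn1 and Ptpn2 are textbook brakes on insulin receptor and JAK signalling.

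The islets came from C57BL/6 mice of 1 year of age, and both genotypes, Flox/Flox and β-Tead1-KO, had 2 libraries, each run on 2 lanes that were summed. TEAD1 binds DNA together with the coactivators YAP and TAZ, and the floxed allele without deletion is the control. The labels name β-cells as the site of the deletion, but the Cre line or promoter that drives it is not given in the sources used here. The design text states 3 pooled samples per library, while the descriptions carry 1 or 2 numbers per library, so the pool size is unclear and p-values measure only the spread between these libraries.

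Exon reads totalled 14069569 to 26387280 per library, and introns took 28.8% and 43.1% of gene reads in Flox against 29.4% and 38.0% in β-Tead1-KO. Levels are CPM (exon reads of a gene scaled to a common library total with TMM factors), and log2 fold changes are β-Tead1-KO over Flox. Tead1 itself had 101 and 124 CPM in Flox against 137 and 163 in those labelled β-Tead1-KO, and was thus not lower there. Its log2 fold change of 0.41 (SE 0.19) did not pass the test (adjusted p = 0.347 in edgeR). Reads summed over a gene do not resolve a deleted exon, so they do not check the labels, and every direction given rests on those labels. As in any bulk measurement, fewer cells of a type and less RNA per cell cannot be told apart. Summed markers of β-cells were 220956 and 224340 CPM in Flox against 213286 and 185851 in β-Tead1-KO, so the labelled tissue's defining markers were present in all 4 libraries.

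Between genotypes, 3 members rose and 3 fell. Ptprk, Ptpn3 and Ptprs were higher in the libraries labelled β-Tead1-KO, and Ptprm, Ptprr and Ptprz1 were lower. These were 6 of the 35 members tested, or 17.1%, where 3.36% of all 15014 tested genes passed, 1.76% higher and 1.6% lower (edgeR quasi-likelihood test, Benjamini-Hochberg adjusted p below 0.05). Members were chosen with earlier results of these data known, so the comparison of these shares is no test of the family. Ptpn7 failed the count filter and was not tested. Of the 6, 5 were among 18 receptor types and 1 was among 14 non-receptor types tested, and 0 of 3 Ptp4a genes passed. At an unadjusted p below 0.05 there were 11 members, against 16.8% of all genes. The median log2 fold change was -0.17 over receptor types, 0.02 over non-receptor types and -0.01 over all tested genes. The median size of the change regardless of sign was 0.252 over members and 0.273 over all genes. Member groups did not overlap in 19 of 35 cases, where 48% of all genes had groups that did not overlap.

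**Figure D1:**
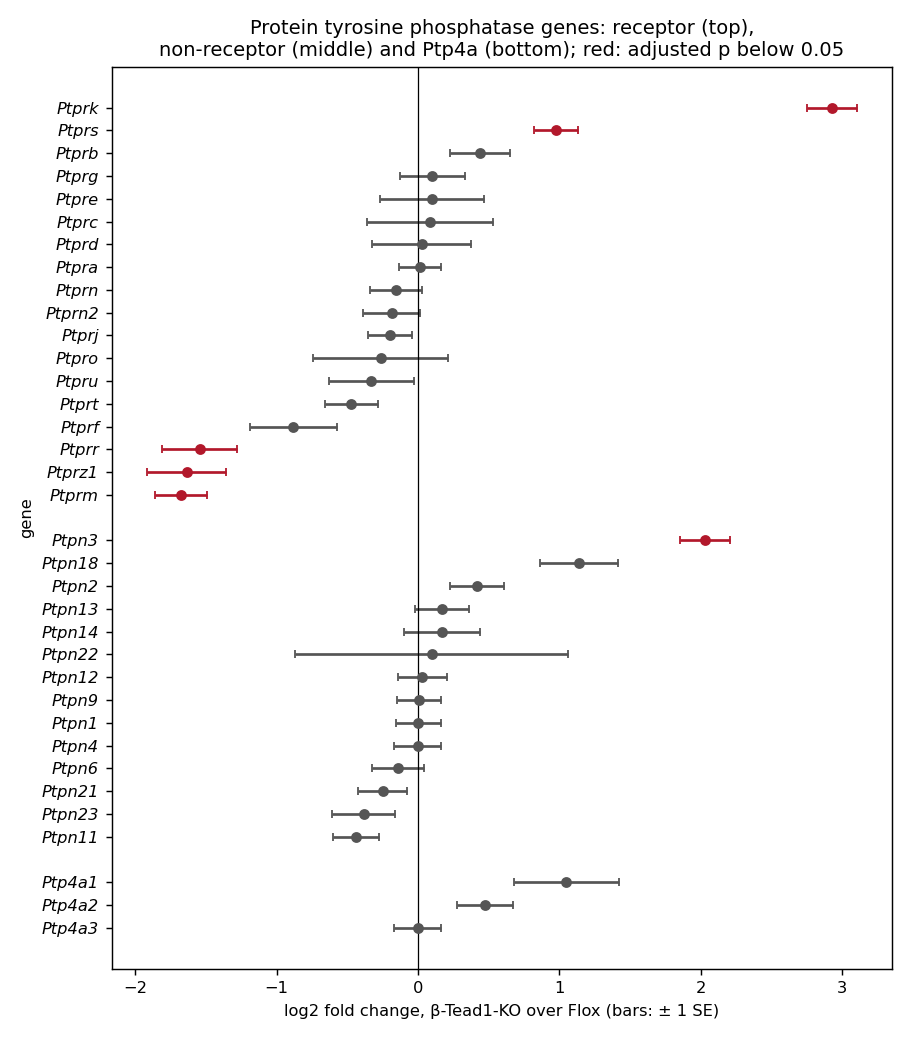
Log2 fold change (β-Tead1-KO over Flox) of the 35 tested members, receptor types on top, non-receptor types in the middle and Ptp4a genes at the bottom, with bars of 1 SE from the edgeR fit of 2 libraries per group. The 6 red points passed the adjusted threshold, Ptprk lies farthest right at 2.93 and Ptprm farthest left at -1.68.

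The call count changed when 1 library was left out, a fit in which the spread comes from the other group alone. The 6 members kept their direction in all 16 alternatives tried. Their log2 fold changes ranged, for example, from 0.92 to 1.04 for Ptprs and from -1.83 to -1.17 for Ptprr. Without β-Tead1-KO library 2 only Ptprk passed, without β-Tead1-KO library 1 only Ptprk and Ptpn3 did, without Flox library 2 there were 6 calls, and without Flox library 1 there were 12. The share of all genes called in these fits was 0.431%, 0.566%, 6.26% and 15.1%, in the same order. DESeq2 called 8 members, the 6 above with Ptprf and Ptp4a1, against 7.44% of all genes. With limma-voom 4 members passed, Ptprk, Ptpn3, Ptprs and Ptprm, against 2.62% of all genes.

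The granule members Ptprn and Ptprn2 had the highest length-normalised level of the family in every library. Ptprn (chromosome 1, 75247027 to 75264502, minus strand, mm10) had 506 and 541 CPM in Flox against 477 and 462 in β-Tead1-KO. Ptprn2 (chromosome 12, 116485720 to 117276849, plus strand) had 762 and 817 CPM in Flox against 694 and 692 in β-Tead1-KO. Both β-Tead1-KO libraries lay below both Flox libraries for each gene, by a margin that did not pass the test. The log2 fold change of Ptprn was -0.16 (SE 0.18, adjusted p = 0.732 in edgeR, 95% interval -0.61 to 0.30). That of Ptprn2 was -0.19 (SE 0.20, adjusted p = 0.714 in edgeR, 95% interval -0.69 to 0.31).

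Compared by RPKM, which divides by exon length, Ptprn had 79.9 and 70.3 in Flox and 76.7 and 66.1 in β-Tead1-KO. Ptprn2 had 59.4 and 52.4 RPKM in Flox and 55.1 and 48.9 in β-Tead1-KO, so Ptprn exceeded Ptprn2 by 1.34 to 1.39 times in every library. Together they held 39.7% and 40.7% of the family's summed RPKM in Flox and 36.2% and 34.2% in β-Tead1-KO. The difference of -4.96 percentage points had an exact 2-sided permutation p of 0.333, the smallest that 2 against 2 libraries allow. With unique exon reads per length the difference was -3.26 points. Such a share also changes with the RPKM of other members, of which Ptp4a1 and Ptprk were higher and Ptprf lower in β-Tead1-KO. Their part in the difference was not tested. Ptprn2 shares ground with the opposite-strand genes Gm10421 and Gm5441, which hold 452 and 575 reads against its 61910. Use of strand is not given, so such reads cannot be assigned with certainty.

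Next in mean RPKM came Ptp4a1 at 28.0, Ptprf at 22.6, Ptp4a2 at 20.4, Ptpn11 at 17.5 and Ptpra at 15.1. The order differed between libraries, and in Flox library 2 Ptp4a1 was at 10.4 RPKM, below the other 4. Ptp4a1 is also uncertain in level, with 15.6% of its exon reads mapped uniquely. Receptor types held 62.4% and 69.6% of family RPKM in Flox and 59.7% and 57.9% in β-Tead1-KO. Ptpn members held 21.5% to 22.8% in all 4 libraries.

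**Figure D2:**
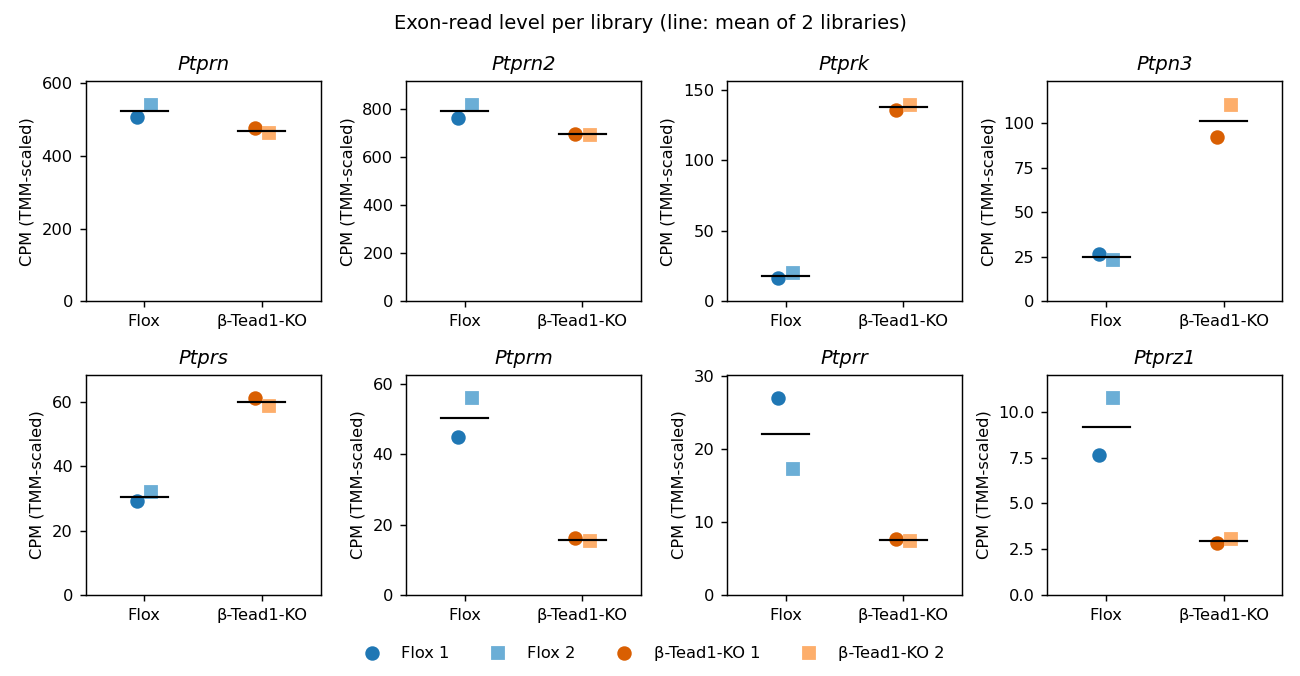
CPM (TMM-scaled exon reads) in each of the 4 libraries for the granule members and the 6 called members, with linear axes from 0, circles for library 1, squares for library 2 and a line at the mean of 2 libraries. Ptprn and Ptprn2 differ little between genotypes, while the β-Tead1-KO points of Ptprk lie at 136 and 139 CPM against 16.4 and 19.7 in Flox.

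The member that rose most and the one that fell most, Ptprk and Ptprm, are close relatives. They belong with Ptprt and Ptpru to the MAM-domain receptors, which bind their own kind on neighbouring cells at cell contacts. Ptprk (chromosome 10, 28074820 to 28597397, plus strand) had 16.4 and 19.7 CPM in Flox against 136 and 139 in β-Tead1-KO. It was 7.61-fold higher (log2 fold change 2.93, SE 0.18, adjusted p = 0.0026 in edgeR) and passed under all 16 alternatives tried. Its RPKM rank among the 36 kept members was 27 in both Flox libraries and 8 and 7 in β-Tead1-KO.

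Ptprm (chromosome 17, 66666848 to 67354459, minus strand) had 44.9 and 55.9 CPM in Flox against 16.1 and 15.4 in β-Tead1-KO. It was 3.19-fold lower (log2 fold change -1.68, SE 0.18, adjusted p = 0.0130 in edgeR). The call was lost without β-Tead1-KO library 1 (adjusted p = 0.111 in edgeR) or library 2 (0.136). Ptprt had 107 and 134 CPM in Flox against 79.6 and 93.6 in β-Tead1-KO, a log2 fold change of -0.47 that did not pass (adjusted p = 0.286 in edgeR). Ptpru had 28.2 and 51.5 CPM in Flox against 29.1 and 34.0 in β-Tead1-KO, and its groups overlapped.

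Within this type the leading gene differed by genotype. Ptprk held 11.5% and 10.3% of the type's summed RPKM in Flox and 62.3% and 60.1% in β-Tead1-KO. Ptprt led in Flox with 36.6% and 34.2% and held 17.9% and 19.8% in β-Tead1-KO. Ptprm held 34.8% and 32.2% in Flox and 8.18% and 7.38% in β-Tead1-KO. Ptprm exceeded Ptprk 3.02 and 3.14 times in Flox, while Ptprk exceeded Ptprm 7.62 and 8.15 times in β-Tead1-KO. The type as a whole made up 4.42% and 5.70% of family RPKM in Flox and 6.63% and 6.79% in β-Tead1-KO. These shares were chosen after the values were seen and carry no test.

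**Figure D3:**
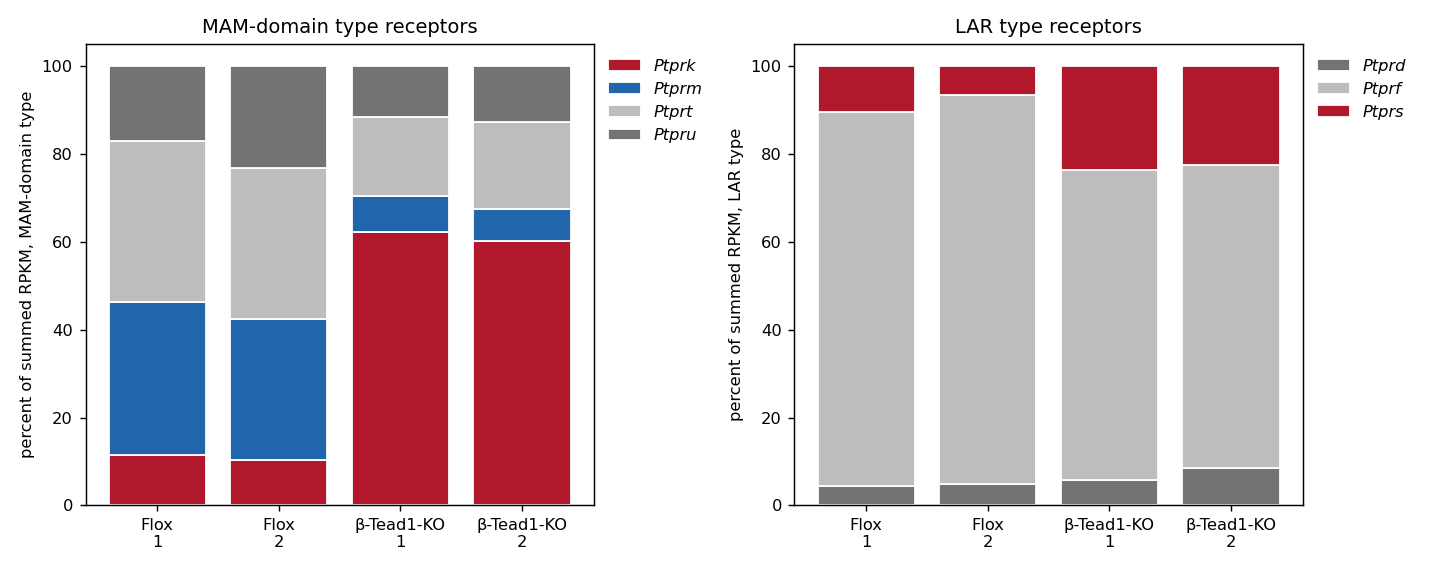
Percent of the summed RPKM of each receptor type held by each gene, 1 stacked bar per library, for the MAM-domain type (left) and the LAR type (right). Ptprk fills 10.3% to 11.5% of the Flox bars on the left and 60.1% to 62.3% of the β-Tead1-KO bars, and Ptprs fills 6.54% to 10.5% and 22.5% to 23.7% on the right.

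The LAR receptors Ptprf, Ptprs and Ptprd bind heparan sulfate proteoglycans and synaptic partners. Ptprs (chromosome 17, 56412431 to 56476483, minus strand) had 29.2 and 32.0 CPM in Flox against 61.1 and 58.9 in β-Tead1-KO. It was 1.96-fold higher (log2 fold change 0.97, SE 0.15, adjusted p = 0.0346 in edgeR). The call was lost without β-Tead1-KO library 1 (adjusted p = 0.244 in edgeR) or library 2 (0.258), and with lane 2 alone (0.0565). Ptprf, the most abundant of the type, had 309 and 567 CPM in Flox against 239 and 236 in β-Tead1-KO. Its Flox libraries lay far apart, and the log2 fold change of -0.88 (SE 0.31) did not pass in edgeR (adjusted p = 0.226) but did in DESeq2 (adjusted p = 0.0455). Without Flox library 1 it passed in edgeR (log2 fold change -1.25, adjusted p = 0.00058), and without Flox library 2 it did not (-0.38, adjusted p = 0.370). Ptprd had 40.5 and 77.5 CPM in Flox against 48.1 and 71.9 in β-Tead1-KO, and its groups overlapped.

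Of 9 tested genes for ligands of LAR receptors, 0 rose and 1 fell in edgeR, with a median log2 fold change of 0.01. The one that fell was Lrrtm4, a synaptic adhesion protein, at 2.65 and 2.05 CPM in Flox and 0.179 and 0.263 in β-Tead1-KO (log2 fold change -3.37, adjusted p = 0.0309 in edgeR). DESeq2 called Lrrtm4 lower and another ligand gene, Slitrk1, higher, at 3.11 and 1.90 CPM in Flox and 5.96 and 15.1 in β-Tead1-KO (log2 fold change 2.05, DESeq2 adjusted p = 0.0043, adjusted p = 0.111 in edgeR). Of 10 genes for intracellular partners of these receptors, 0 passed in edgeR or DESeq2 and 1 had an unadjusted p below 0.05 in edgeR, with a median log2 fold change of -0.20. For these and the lists below, 3.36% of all genes passed in edgeR and 7.44% in DESeq2. At an unadjusted p below 0.05 in edgeR the share of all genes was 16.8%.

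Promoter letters are shown for 3 changed receptors, since the deleted gene encodes a DNA-binding protein: Ptprk, Ptprs and, as a member that fell, Ptprm. They were chosen with their values and motifs known, so the contrast between them is no result. The sequences are the 250 bases before the transcript start in RefSeq on GRCm38.p6, 5′ to 3′ on the gene's strand. Capitals mark the letters GGAATG, the core of the motif bound by TEAD proteins, or its reverse complement CATTCC. Ptprk has it at chr10:28074570-28074819 (plus strand), starting 65 bases before the start.
Ptprk: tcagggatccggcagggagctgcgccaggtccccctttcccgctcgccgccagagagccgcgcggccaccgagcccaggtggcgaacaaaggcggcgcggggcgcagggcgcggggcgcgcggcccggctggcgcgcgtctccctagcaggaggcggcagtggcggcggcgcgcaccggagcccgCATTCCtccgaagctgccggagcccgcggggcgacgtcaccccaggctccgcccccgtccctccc
The second RefSeq promoter of Ptprs, chr17:56462222-56462471 (minus strand), has it 160 bases before the start.
Ptprs: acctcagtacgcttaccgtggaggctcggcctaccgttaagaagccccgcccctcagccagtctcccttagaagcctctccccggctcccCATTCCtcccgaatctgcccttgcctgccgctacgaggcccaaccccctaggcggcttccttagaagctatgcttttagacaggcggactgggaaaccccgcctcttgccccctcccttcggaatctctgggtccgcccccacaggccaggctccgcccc
Its other promoter, chr17:56476481-56476730, does not hold these letters, nor do the windows of Ptpn3, which rose, or of Ptprr and Ptprz1, which fell. The Ptprm window, chr17:67354460-67354709 (minus strand), does not hold them either.
Ptprm: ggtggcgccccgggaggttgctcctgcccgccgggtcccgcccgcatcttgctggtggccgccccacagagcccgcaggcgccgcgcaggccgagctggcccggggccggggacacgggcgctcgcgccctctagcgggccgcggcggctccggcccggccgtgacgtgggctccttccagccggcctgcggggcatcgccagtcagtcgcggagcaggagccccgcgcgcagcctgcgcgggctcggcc
In windows of 250 bases before to 50 after the start, either strand, 7 of 44 promoters of kept members held the motif (15.9%), as did 14.7% of all 32851 promoters. The members' share is thus near that of all promoters. The sets were not matched for base composition, with a median of 64.2% G and C letters in members' promoters and 52.7% in all. By gene the members' share was 6 of the 31 kept members with an entry (19.4%), where 16.6% of all 27025 genes held the motif. The 6 were Ptprk, Ptprs, Ptpn14, Ptpn18, Ptpn21 and Ptpn22. Among these, Ptprk and Ptprs passed the test and Ptpn14, Ptpn18, Ptpn21 and Ptpn22 did not. Ptp4a3, Ptpn2, Ptpn12, Ptprb and Ptprd had no entry.

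Ptprr and Ptprz1, from other receptor types, fell. Ptprr, which binds and dephosphorylates MAP kinases, lies on chromosome 10 (116018213 to 116274932, plus strand). It had 26.9 and 17.2 CPM in Flox against 7.71 and 7.43 in β-Tead1-KO. It was 2.92-fold lower (log2 fold change -1.54, SE 0.26, adjusted p = 0.0423 in edgeR). The call was lost in limma-voom (adjusted p = 0.0543), with no count filter (0.0580), and in edgeR without β-Tead1-KO library 1 (0.234) or library 2 (0.278). An overlapping gene, 4933416C03Rik, held 24 reads against the 1193 of Ptprr, and the origin of such reads cannot be told apart.

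The neighbour of Ptprr, 26.4 kb away, is Ptprb, the receptor phosphatase of endothelial cells. Ptprb had 70.2 and 91.3 CPM in Flox against 95.2 and 123 in β-Tead1-KO (log2 fold change 0.44, adjusted p = 0.387 in edgeR). The neighbours' fold changes thus had opposite signs, and the change of Ptprb did not pass. Summed endothelial markers were 632 and 623 CPM in Flox and 704 and 704 CPM in β-Tead1-KO, with 0 of 10 called in edgeR, 1 called higher in DESeq2, and 10 of 10 at a log2 fold change above 0 (median 0.19). Their part in the value of Ptprb was not tested.

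Ptprz1 (chromosome 6, 22875502 to 23052916, plus strand) and Ptprg carry a carbonic anhydrase-like outer domain that binds contactins. Ptprz1 had 7.62 and 10.7 CPM in Flox against 2.82 and 3.04 in β-Tead1-KO. It was 3.11-fold lower (log2 fold change -1.64, SE 0.28, adjusted p = 0.0418 in edgeR). The call was lost in limma-voom (adjusted p = 0.0592), with no count filter (0.0580), with lane 2 alone (0.0562), and without β-Tead1-KO library 1 (0.267) or library 2 (0.264). Ptprg had 34.0 and 48.3 CPM in Flox against 38.7 and 49.5 in β-Tead1-KO, and its groups overlapped. Of 7 tested ligands of this pair, 1 rose and 0 fell in edgeR, and DESeq2 called the same gene. It was Cntn3, a contactin, at 6.92 and 12.3 CPM in Flox and 29.7 and 37.7 in β-Tead1-KO (log2 fold change 1.82, adjusted p = 0.0427 in edgeR). Ptprz1 is known from glia, and summed neural and Schwann cell markers were 19.7 and 18.1 CPM in Flox and 18.6 and 18.2 in β-Tead1-KO, with 4 of 8 tested, 0 called in edgeR or DESeq2 and 0 at an unadjusted p below 0.05. Sox10, which defines those glia, had 0.28 CPM or less in every library. The part of glia in the change of Ptprz1 was not tested.

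Marker sums of other endocrine cells were lower beside the members that fell. Summed δ-cell markers were 1810 and 2073 CPM in Flox and 623 and 466 in β-Tead1-KO. Summed α-cell markers were 17169 and 13334 CPM against 9386 and 7466, and polypeptide cell markers were 2438 and 2616 CPM against 1077 and 572. In edgeR 1 of 4 δ-cell markers (Sst) and 0 of 2 polypeptide cell markers passed, and DESeq2 called 2 of each. The α-cell list had a median log2 fold change of -0.99, with 0 of 6 above 0 and 4 called lower in DESeq2. Their part in the changes of Ptprm, Ptprr and Ptprz1 was not tested. Mesenchymal markers were 248 and 206 CPM in Flox against 323 and 293, with 2 of 10 called higher in edgeR (Col1a1 and Col1a2) and 5 in DESeq2 (median log2 fold change 1.19). Erythroid markers were 121 and 52.5 CPM against 317 and 235, with 1 of 5 called higher in edgeR (Hbb-bt) and 3 in DESeq2 (median 1.58). Both lists' sums were higher beside the members that rose, and their part in the changes of Ptprk, Ptpn3 and Ptprs was not tested either. Of the 10 β-cell markers 1 fell in edgeR (Slc2a2) and DESeq2 called 6, all lower. Their median log2 fold change was -0.71, and 1 of the 10 lay above 0. Their part in the members' changes was not tested. Of the ductal, acinar and sex-linked lists 0 genes passed in edgeR or DESeq2, and 1, 0 and 0 genes had an unadjusted p below 0.05 in edgeR. That count was 4 of 4 for δ-cell, 2 of 2 for polypeptide cell and 6 of 10 for β-cell markers. It was 5 of 10 for mesenchymal and 5 of 5 for erythroid markers, against 16.8% of all genes.

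Among non-receptor types Ptpn3 was the member that passed the test. Ptpn3 and Ptpn4 share FERM and PDZ domains that place them at the membrane. Ptpn3 (chromosome 4, 57190841 to 57301837, minus strand) had 26.5 and 23.2 CPM in Flox against 92.4 and 111 in β-Tead1-KO. It was 4.08-fold higher (log2 fold change 2.03, SE 0.18, adjusted p = 0.0070 in edgeR). Without β-Tead1-KO library 2 the call was lost (adjusted p = 0.0644 in edgeR). Ptpn4 had 119 and 130 CPM in Flox against 114 and 135 in β-Tead1-KO. In RPKM, Ptpn3 was at 0.348 and 0.279 of Ptpn4 in Flox and at 1.27 and 1.28 of it in β-Tead1-KO.

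The other 13 tested Ptpn members ranged from -0.44 to 1.14 in log2 fold change, and the lowest edgeR adjusted p was 0.104. That value belonged to Ptpn18, a PEST-type enzyme, at 2.41 and 2.26 CPM in Flox and 5.47 and 4.84 in β-Tead1-KO. Its log2 fold change was 1.14 (95% interval 0.46 to 1.82, not adjusted for the number of genes). Ptpn11, an SH2-domain enzyme that acts downstream of growth factor receptors, had 242 and 238 CPM in Flox against 187 and 167 in β-Tead1-KO. Its log2 fold change of -0.44 (unadjusted 95% interval -0.84 to -0.04) did not pass (adjusted p = 0.253 in edgeR). Its blood-cell relative Ptpn6 had 34.9 and 28.9 CPM in Flox against 31.3 and 26.5 in β-Tead1-KO, and its groups overlapped.

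Ptpn1, which dephosphorylates the insulin receptor, had 64.1 and 55.0 CPM in Flox against 59.5 and 59.6 in β-Tead1-KO. The 95% interval of its log2 fold change ran from -0.39 to 0.39. Ptpn2, which acts on JAK kinases, had 27.8 and 21.3 CPM in Flox against 32.5 and 33.2 in β-Tead1-KO (log2 fold change 0.42, adjusted p = 0.356 in edgeR). Ptpn9 had 45.4 and 43.4 CPM in Flox against 47.1 and 42.0 in β-Tead1-KO, with 50.04% of its exon reads mapped uniquely. Of 17 tested insulin receptor, JAK-STAT and adaptor genes and of 13 Src family genes, 0 passed in edgeR, with median log2 fold changes of -0.08 and -0.10. At an unadjusted p below 0.05 there were 4 of the 17 genes and 3 of the 13. DESeq2 called 3 of the 17, all lower, and 1 of the 13, the adaptor Bcar1 (log2 fold change -0.66, DESeq2 adjusted p = 0.0333).

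The leukocyte phosphatase Ptprc, also called CD45, had 16.7 and 7.62 CPM in Flox against 16.7 and 9.23 in β-Tead1-KO. Library 1 was the higher in both genotypes. For summed leukocyte markers library 1 was also the higher in both genotypes, at 99.8 and 64.5 CPM in Flox and 84.4 and 47.3 in β-Tead1-KO. Of these markers 0 of 14 were called in edgeR and 1 in DESeq2.

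The Ptp4a genes encode small phosphatases tied to cell growth. Ptp4a1 had 222 and 109 CPM in Flox against 282 and 402 in β-Tead1-KO (log2 fold change 1.05, SE 0.37, adjusted p = 0.238 in edgeR, DESeq2 adjusted p = 0.0353). Its reads were mostly shared with near-identical sequence elsewhere, with 15.6% mapped uniquely, so its level is uncertain, and with unique reads the log2 fold change was 0.92. Ptp4a2 had 135 and 100 CPM in Flox against 171 and 156 in β-Tead1-KO, and Ptp4a3 had 38.3 and 32.5 against 35.7 and 34.9. Neither passed in edgeR or DESeq2. The 3 genes held 14.8% and 8.93% of family RPKM in Flox and 17.98% and 20.4% in β-Tead1-KO.

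The 13 receptor types that did not pass ranged from -0.88 to 0.44 in log2 fold change, among them Ptprj at -0.20, Ptpro at -0.27, Ptpra at 0.01 and Ptpre at 0.10. Ptpn14, which binds YAP, had 6.32 and 8.46 CPM in Flox against 7.13 and 9.42 in β-Tead1-KO, and its groups overlapped.

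The 6 calls were then compared between read classes. Reads across exon-exon junctions, which come from spliced RNA, called the same 6 members, where 4.2% of all genes passed. They are part of the exon reads, at 48.4% to 49.4% of them per library, so they are no independent check of the calls. Intron reads, which are richer in unspliced RNA, called 0 of 35 members in edgeR, where 0.748% of all genes passed. At an unadjusted p below 0.05 there were 6 of 35 members on intron reads, against 9.07% of all genes. They were Ptprk, Ptpn3, Ptprs, Ptprr, Ptprz1 and Ptpn18, so Ptprm was not among them and Ptpn18 was not called on exon reads. The 6 members called on exon reads kept their direction on intron reads. The intron level of Ptprk was 45.3 and 79.2 CPM in Flox and 323 and 534 in β-Tead1-KO, a log2 fold change of 2.78 (adjusted p = 0.0609 in edgeR). That of Ptprm was 193 and 302 CPM against 97.5 and 168, a log2 fold change of -0.90 (adjusted p = 0.662 in edgeR) beside -1.67 on junction reads. The intron share of gene reads differed between library 1 and library 2 of each genotype, and its part in the intron values was not tested.

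**Figure D4:**
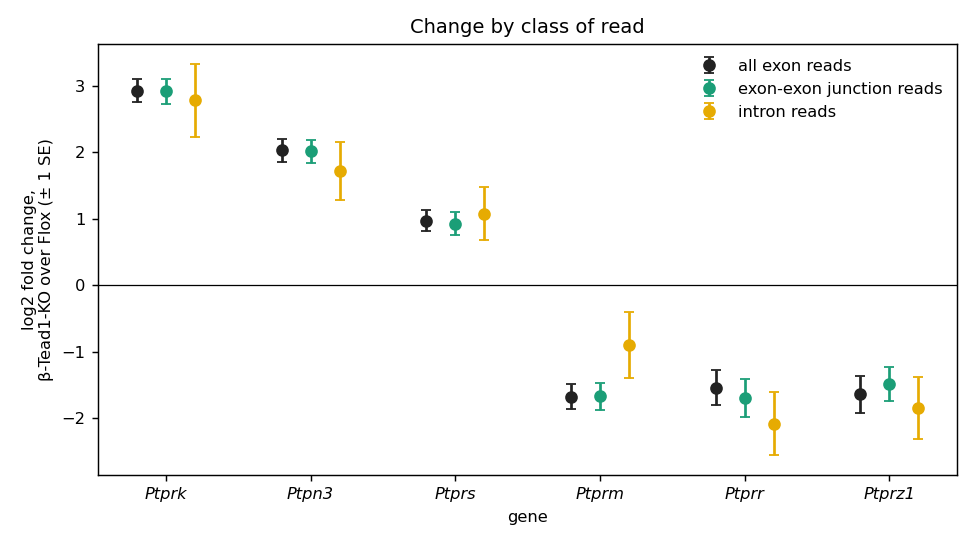
Log2 fold change (β-Tead1-KO over Flox) of the 6 called members from all exon reads, exon-exon junction reads and intron reads, with bars of 1 SE from edgeR fits of 2 libraries per group. Exon and junction values lie close together, and the intron value of Ptprm, -0.90, lies nearest to 0 of the values for the 3 members that fell.

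Related phosphatases outside the family gave 1 call in edgeR and 6 in DESeq2, where 3.36% and 7.44% of all genes passed. Of 18 tested cysteine-based and Eya phosphatases, 0 rose and 1 fell in edgeR, with a median log2 fold change of 0.09. The one that fell was Eya1, a transcriptional coactivator with phosphatase activity, at 27.4 and 38.1 CPM in Flox and 8.92 and 10.1 in β-Tead1-KO (log2 fold change -1.78, adjusted p = 0.0190 in edgeR). DESeq2 called Eya1 too, with the cell cycle phosphatases Cdc14a higher (log2 fold change 0.94, DESeq2 adjusted p = 0.0207) and Cdc14b lower (-0.99, DESeq2 adjusted p = 0.0018). Of 9 MAP kinase phosphatases 0 passed in edgeR, with a median of 0.37, although 3 had an unadjusted p below 0.05 and DESeq2 called 3, all higher. Dusp8 had the lowest DESeq2 adjusted p among them, 1.2e-05, and an adjusted p of 0.0545 in edgeR.

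Of 18 other dense-core granule genes tested beside Ptprn and Ptprn2, 0 rose and 2 fell in edgeR, while DESeq2 called 2 higher and 4 lower, with a median log2 fold change of -0.04. Pcsk1, which cleaves proinsulin, had 538 and 469 CPM in Flox against 240 and 241 in β-Tead1-KO (adjusted p = 0.0418 in edgeR). Sytl4, which tethers granules, had 303 and 263 CPM against 99.7 and 111 (adjusted p = 0.0172 in edgeR). Among those called by DESeq2 alone, the granin Scg2 had 10058 and 5351 CPM in Flox and 19262 and 16784 in β-Tead1-KO (DESeq2 adjusted p = 0.0013, adjusted p = 0.451 in edgeR). The granin Chga had 10274 and 9548 CPM against 4739 and 4830 (DESeq2 adjusted p = 2.7e-08, adjusted p = 0.356 in edgeR). Ptprn and Ptprn2 had log2 fold changes of -0.16 and -0.19 beside -1.07 for Pcsk1 and -1.43 for Sytl4; the differences between these values were not tested.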

How the data were processed

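RNA of hand-picked islets went into Illumina TruSeq libraries, per the labels' protocols. The deposited tables, 1 per lane, give whole-number read counts per Ensembl gene (exon, exon-exon junction and intron reads, unique and total). They also hold RPKM and TPM, the authors' normalised values per the file headers. RPKM, as the mean of 2 lanes, was used to compare genes within a library, and TPM was not used. The ranks, shares and ratios formed from RPKM within each library were then compared between genotypes. Coordinates are on mm10, the build in the submitters' processing notes. The sources used here do not name the aligner, counter, annotation release or strand use.

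Lanes were summed, giving 2 libraries per genotype. Genes passing filterByExpr (minimum count 10, minimum total count 15) were scaled by TMM and tested with edgeR 4.0.16 in R 4.3.3 (2-sided quasi-likelihood test), adjusted by Benjamini-Hochberg over 15014 genes with a threshold of 0.05. Each SE is the log2 fold change over the root of F, and 95% intervals from the t distribution. The edgeR step was also run on simulated counts in which all genes had the same dispersion. That run was not matched to the spread of these libraries, its outcome is not given, and no result rests on it. Alternatives used DESeq2 1.42.0, limma-voom (limma 3.58.1), other filters, read classes, single lanes, libraries left out and a replicate block. Legacy mode of edgeR and the intron share as a covariate were added after the data were seen. A design step on protein sequence was not run.

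Members and all 20 gene lists were chosen with earlier results of these data known. Named in every library were Ptprn, Ptprn2, called members, the 3 receptor and 3 non-receptor members of highest mean RPKM, and Ptpn1, Ptpn2, Ptpn6, Ptpn11, Ptprb, Ptprc, Ptprd, Ptprf, Ptprg, Ptprs and Ptprz1; from each list, up to 3 called genes, of which 1 is not reported here. Ptprk over Ptprm, Ptprt, Ptpru, Ptpn14, Ptpn18, the Ptp4a genes and list genes called by DESeq2 alone were singled out after their values were seen. Promoters are from RefSeq (GRCm38.p6).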

Additional observations from a re-analysis of the deposited data

How the results depend on the processing

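Counts of called genes changed most when a library was left out. With 1 library left out, calls ranged from 67 (without β-Tead1-KO library 2) to 2359 (without Flox library 1) over all genes, 1 to 12 over members, 1 to 8 over receptor types and 0 to 2 over non-receptor types; the lone library of a group is then assumed to vary like the other group. DESeq2 called 1117 genes, the intron share covariate 1125 and the library number as a replicate block 1157, against 504. Receptor calls were 3 with limma-voom, with no filter and with lane 2 alone. The granule share difference was -3.26 points with unique reads per length. Across the 16 alternatives the 6 called members kept their direction. Under the replicate block 6 members passed, as without it; deviations of same-numbered libraries correlated at 0.392, but with 2 pairs the numbers were not taken to pair libraries.

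Values near 0 changed sign. Ptpn9 was -0.030 with lane 2 alone, -0.016 with the covariate and -0.053 to 0.11 with a library left out. Ptpn4 was 0.00021 in DESeq2, 0.044 unfiltered, 0.026 with lane 1 alone, 0.025 with the covariate and -0.11 to 0.14. Ptpn1 was -0.0014 with unique reads, -0.080 with junction reads, -0.012 with lane 1 alone, -7.0e-05 in legacy mode, -0.020 with the covariate and -0.11 to 0.13. Ptprd was -0.075 with junction reads, -0.0039 with lane 1 alone and -0.36 to 0.57. Ptprg was -0.0059 with lane 1 alone and -0.12 to 0.38. Ptprc was -0.031 with lane 2 alone, -0.048 with the covariate and -0.37 to 0.78. Ptpn6 ran from -0.27 to 0.011. The cause was not tested.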
